A study of Mus musculus with 2 samples.

Results

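The genes of the DNA break response and the topoisomerases were examined in round spermatids of C57BL/6 mice; these haploid cells arise from meiosis and have yet to elongate. The set comprised 41 genes named by symbol for their function, of which 40 were found among the 23234 genes of the table. The remaining one, Rad51d, was dropped; an older symbol of it in RefSeq, Rad51l3, had a row of its own with an FPKM of 1.11 in the library labelled Epc-dKO and 0.962 in the wild-type library, and was not counted. Total RNA was sequenced from 1 library labelled Epc-dKO, of mice deficient for Epc1 and Epc2, and from 1 wild-type library; their cells are called dKO-labelled cells and WT cells below. Both genotypes were on the C57BL/6 strain; the alleles, any Cre driver, the age of the mice, the number pooled and the way the cells were isolated are not stated in the labels. EPC1 and EPC2 are enhancer of polycomb proteins and belong to TIP60, a histone acetyltransferase complex that has been studied both in histone acetylation and in the response to broken DNA.

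A broken DNA double strand is sensed by the MRN complex and by kinases of the ATM and ATR family, which mark the surrounding chromatin and recruit mediators. It is then repaired either by homologous recombination, which copies an intact sister or homologue, or by end joining, which ligates the ends directly. Haploid spermatids carry a single copy of each chromosome and have no sister chromatid. When their histones are replaced by transition proteins and protamines, the DNA supercoils held by nucleosomes are released, and transient breaks attributed to type II topoisomerases have been described at this step, in later spermatids than the round ones.

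Values are FPKM, fragments scaled to transcript length and to the size of the library, so levels can be compared between genes. Ratios are log2 of FPKM + 1, with the library labelled Epc-dKO above and the wild-type library below the line; adding 1 draws the ratios of low genes toward 0. A gene with a mean FPKM of 1 or more was called expressed. With 1 library per genotype there is no replicate check, no test and no p-value, and differences of the size given below may be no larger than those between libraries of one genotype. Differences are therefore described by fixed sizes of 1.5-fold and 2-fold, beside the share of all 10438 expressed genes past the same size. FPKM summed to 198081 in the library labelled Epc-dKO and 193611 in the wild-type library, and the depth is unknown. The transcripts of the targeted genes were not lower: Epc1 had an FPKM of 13.6 in the library labelled Epc-dKO and 11.4 in the wild-type library, and Epc2 had 10.5 in the library labelled Epc-dKO and 7.12 in the wild-type library. A value over the whole gene includes exons outside a deleted part, so it does not check the label.

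None of the break response and topoisomerase genes passed the 2-fold rule. Of the 40, 38 were expressed, and 0 were higher and 0 lower by 2-fold, where 2.75% of all expressed genes were higher and 1.88% were lower. By the 1.5-fold rule 2 of the 38 were higher, which is 5.26% beside 8.02% of all expressed genes. Another 4 were lower, which is 10.5% beside 10.8% of all expressed genes. The counts in the set were thus near or under those of the transcriptome. The higher genes were the helicase gene Wrn and the ligase gene Lig4; the lower ones were the ligase gene Lig1, the Ku subunit gene Xrcc6, and the signalling genes Topbp1 and Rnf8. The lower count depended on scaling: with the libraries brought to a median ratio of 1, 2 were higher and 2 lower, beside 9.14% and 9.39% of all genes expressed on that scale, since Topbp1 and Rnf8 then stood at -0.55. With each library rescaled to a sum of 1000000, 2 of 40 were higher and 8 lower, beside 9.43% and 21.6% of all genes expressed on that scale. This rescaling also raises all values, so the pseudocount weighs less and more genes, 15151, reach the minimum. The median log2 ratio of the 38 was -0.13, with quartiles of -0.37 and 0.22, beside -0.05 for all expressed genes, with quartiles of -0.34 and 0.24.

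**Figure D1:**
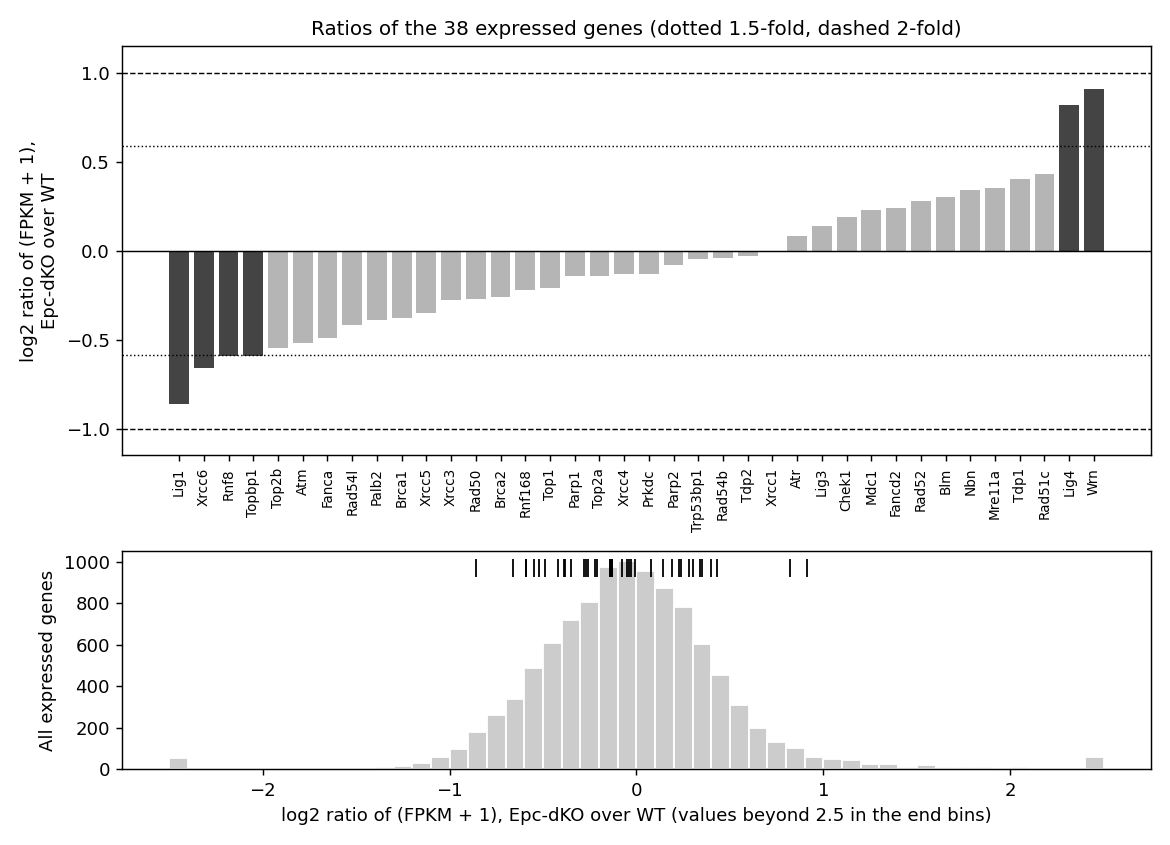
Log2 ratio of (FPKM + 1), the library labelled Epc-dKO over the wild-type library, for the 38 expressed genes in order (upper panel, dark bars past 1.5-fold), and the distribution of all 10438 expressed genes with the 38 as ticks above it (lower panel). The bars run from -0.86 for Lig1 to 0.91 for Wrn and stay inside both 2-fold lines.

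The start regions of the genes past 1.5-fold are shown because these are the members past that rule at a pseudocount of 1. With none, Top2b, at 0.495 of its level in WT cells, differed more widely than any gene shown. Atm, at 0.577, differed more widely than Rnf8 and Topbp1. Of the 40 genes, 32 had an entry in the RefSeq promoter table (GRCm38.p6), and Wrn, Prkdc, Rad50, Nbn, Xrcc2, Rad54b, Fancd2 and Tdp2 had none. Each line gives the 250 bases before the first listed start, 5′ to 3′. Capitals mark matches on either strand to letters known from common promoter elements. The GC box was searched as GGGCGG. For the CCAAT box its own letters were used, and for the cAMP response element TGACGTCA. An E2F-type site was any of TTTGGCGC, TTTCCCGC, TTTCGCGC or TTTGCCGC, and an NRF1-type site was GCGCATGC. The Lig1 window lies at chr7:13276925-13277174 on the plus strand, that of Xrcc6 at chr15:82016119-82016368 on the plus strand, that of Topbp1 at chr9:103305077-103305326 on the plus strand, that of Rnf8 at chr17:29614539-29614788 on the plus strand, and that of Lig4 at chr8:9977681-9977930 on the minus strand.
Lig1: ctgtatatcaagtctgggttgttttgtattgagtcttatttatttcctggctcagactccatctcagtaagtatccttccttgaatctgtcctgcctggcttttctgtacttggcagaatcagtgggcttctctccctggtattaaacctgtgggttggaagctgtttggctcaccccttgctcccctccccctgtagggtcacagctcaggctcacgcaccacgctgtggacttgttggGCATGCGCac
Xrcc6: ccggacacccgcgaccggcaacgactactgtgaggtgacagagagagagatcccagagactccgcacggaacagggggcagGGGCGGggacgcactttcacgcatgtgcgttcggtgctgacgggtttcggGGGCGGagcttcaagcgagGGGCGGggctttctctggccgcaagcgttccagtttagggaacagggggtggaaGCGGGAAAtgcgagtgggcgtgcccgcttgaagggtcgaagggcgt
Topbp1: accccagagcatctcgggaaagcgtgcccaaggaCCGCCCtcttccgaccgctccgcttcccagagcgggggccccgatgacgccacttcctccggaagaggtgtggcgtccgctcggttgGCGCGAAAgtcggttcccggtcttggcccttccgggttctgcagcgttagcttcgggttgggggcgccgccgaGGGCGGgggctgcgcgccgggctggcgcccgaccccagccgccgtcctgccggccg
Rnf8: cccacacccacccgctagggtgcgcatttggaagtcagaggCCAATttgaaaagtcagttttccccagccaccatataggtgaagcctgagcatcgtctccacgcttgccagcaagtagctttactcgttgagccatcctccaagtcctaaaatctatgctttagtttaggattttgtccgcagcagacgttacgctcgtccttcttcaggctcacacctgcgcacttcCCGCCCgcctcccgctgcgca
Lig4: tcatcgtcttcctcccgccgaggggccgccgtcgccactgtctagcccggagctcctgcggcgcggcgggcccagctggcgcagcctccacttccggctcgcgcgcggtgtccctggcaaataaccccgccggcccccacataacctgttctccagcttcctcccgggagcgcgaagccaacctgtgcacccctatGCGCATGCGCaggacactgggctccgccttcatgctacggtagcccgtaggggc

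These windows held different letters. Topbp1 and Xrcc6 each had 1 E2F-type match beside 2 and 3 GC boxes. Rnf8 had a CCAAT box and a GC box. The Lig4 window had NRF1-type letters on both strands, overlapping each other, and no GC box. Lig4 has 2 listed starts, and its other window held 2 GC boxes and no NRF1-type match. The Lig1 window had 1 NRF1-type match; Lig1 has 3 listed starts, and another of its windows held a GC box. No other matches in the lines above overlapped. Over all 37 windows of the 32 genes, 5 (13.5%) held an E2F-type match, beside 3.42% of the 9311 windows of expressed genes and 1.86% of all 32851 windows; the genes were Brca2, Chek2, Mdc1, Topbp1 and Xrcc6. NRF1-type letters also occurred in 13.5% of the windows of the set, in those of Atm, Lig1, Lig4, Parp2 and Tdp1, beside 4.71% of the windows of expressed genes and 2.26% of all. GC boxes occurred in 70.3% of the windows of the set, 55.0% of those of expressed genes and 32.7% of all. CCAAT boxes were at 40.5%, 36.4% and 33.8% in the same order, and the full cAMP response element at 5.41%, 2.99% and 1.55%. Of the genes with E2F-type letters, Xrcc6 and Topbp1 were lower past 1.5-fold while Brca2, Chek2 and Mdc1 had log2 ratios of -0.26, -0.02 and 0.23. A match of letters is a description of the window and not a binding site.

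The set covered a wide range of levels in both libraries. In the library labelled Epc-dKO the lowest gene had an FPKM of 0.498, the median was 4.21 and the highest was 53.5; in WT cells these were 0.521, 4.84 and 48.7. The lowest was Chek2 and the highest Lig3 in both. An FPKM of 10 or more was reached by 11 genes in dKO-labelled cells and by 9 in WT cells. The same 5 genes led both libraries: Lig3, Mdc1, Tdp1, Top2a and Xrcc1. They held 51.7% of the summed FPKM of the 40 genes in dKO-labelled cells and 48.7% in WT cells, out of sums of 374.6 in dKO-labelled cells and 364.2 in WT cells. Lig3, Xrcc1 and Tdp1 belong to one repair route, that of single-strand breaks. In this route the ligase LIG3 can work bound to the scaffold XRCC1, and TDP1 clears topoisomerase I from DNA ends. Values per gene do not separate splice forms of Lig3. Across the 40 genes, which are not replicates, Spearman's rank coefficient between the libraries was 0.939.

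**Figure D2:**
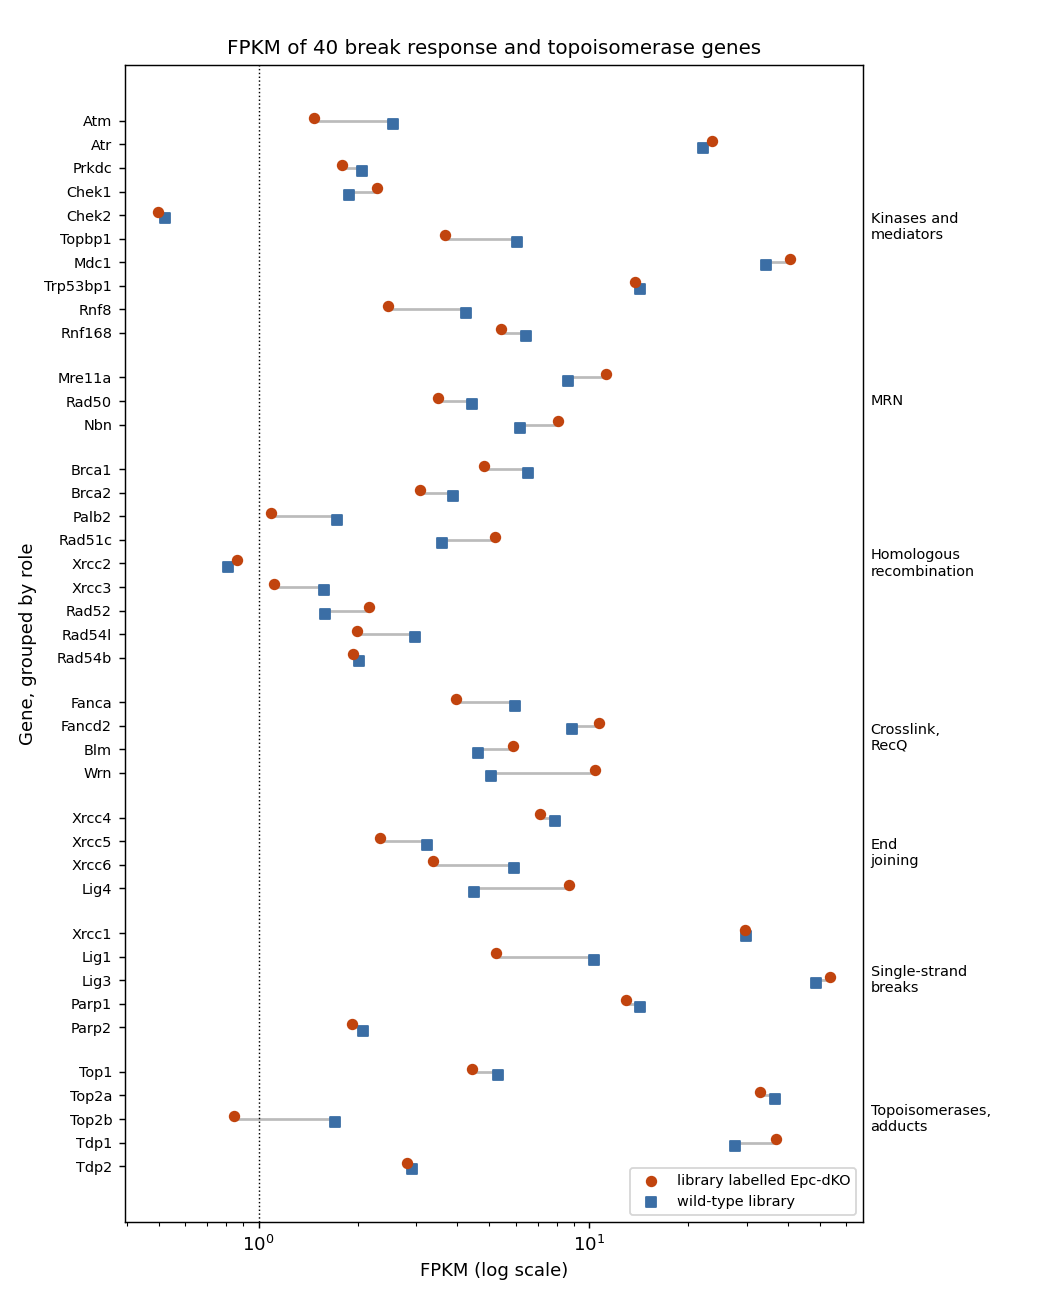
FPKM on a log scale of the 40 genes, grouped by role, in dKO-labelled cells (circles) and WT cells (squares); the dotted line marks an FPKM of 1. Lig3, Mdc1, Tdp1, Top2a and Xrcc1 stand highest in both libraries, and the widest gaps are seen for Wrn, Lig4, Lig1 and Top2b.

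Type II topoisomerase transcripts were almost all Top2a. TOP2A and TOP2B pass one DNA double strand through another; TOP2A is the form of dividing cells and TOP2B the one usually named for non-dividing cells. Top2a had an FPKM of 32.9 in dKO-labelled cells and 36.5 in WT cells, a log2 ratio of -0.14. Top2b had 0.841 in dKO-labelled cells and 1.70 in WT cells, a log2 ratio of -0.55 that lay just inside the 1.5-fold rule. Top2a thus stood 39.2-fold above Top2b in dKO-labelled cells and 21.5-fold above it in WT cells. Top2a shares 122 exonic bases on the same strand with the snoRNA gene Gm23451, which was not listed. A share of the Top2a reads is therefore uncertain. With no pseudocount the Top2b level in dKO-labelled cells was 0.495 of that in WT cells, which rests on low values in both; with a pseudocount of 0.5 its log2 ratio was -0.71, past 1.5-fold. An exonic stretch of 1793 bases of Top2b overlaps Rarb on the other strand, a gene with FPKM values of 0 in dKO-labelled cells and 0.0315 in WT cells. Top1, the type I enzyme that nicks one strand, had 4.44 in dKO-labelled cells and 5.30 in WT cells.

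The enzymes that remove trapped topoisomerases were unequal too. Tdp1, for the phosphodiesterase that acts on topoisomerase I adducts, had an FPKM of 36.9 in dKO-labelled cells and 27.8 in WT cells (log2 ratio 0.40). Tdp2, for the enzyme that acts on topoisomerase II adducts, had 2.82 in dKO-labelled cells and 2.91 in WT cells (-0.03). Tdp1 stood 13.1-fold above Tdp2 in dKO-labelled cells and 9.56-fold above it in WT cells. So the most abundant topoisomerase of the set, Top2a, and the more abundant adduct enzyme, Tdp1, were of different types. With a pseudocount of 1 none of these 5 genes passed 1.5-fold, and their median log2 ratio was -0.14.

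The 3 DNA ligase genes differed in direction. Lig1, for the ligase that joins Okazaki fragments in replication and seals excision repair patches, had an FPKM of 5.25 in dKO-labelled cells and 10.3 in WT cells, a log2 ratio of -0.86. Only 3.43% of expressed genes had a ratio as low or lower. Lig4, for the ligase of end joining, had 8.68 in dKO-labelled cells and 4.49 in WT cells, a log2 ratio of 0.82 at the percentile of 95.9. Lig1 was the higher of this pair in WT cells and Lig4 in dKO-labelled cells. Lig3, which serves single-strand break repair and mitochondrial DNA, stayed the most abundant by far, with 53.5 in dKO-labelled cells and 48.7 in WT cells (0.14). Lig3 stood 10.2-fold above Lig1 in dKO-labelled cells and 4.71-fold above it in WT cells. Overlaps on the opposite strand join 247 exonic bases of Lig1 to Zswim9 and 1826 of Lig3 to Rffl, so a share of their reads is uncertain where strand was not used in counting.

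Other single-strand break genes lay close to the diagonal. Xrcc1, the scaffold of this route, had an FPKM of 29.8 in dKO-labelled cells and 30.0 in WT cells. Parp1, which encodes the main enzyme that senses breaks by making poly(ADP-ribose), had 12.9 in dKO-labelled cells and 14.3 in WT cells. Its relative Parp2 had 1.91 in dKO-labelled cells and 2.08 in WT cells. The Parp1 to Parp2 ratio was nearly the same in both libraries, at 6.75 in dKO-labelled cells and 6.88 in WT cells. The group of 5, Lig1 and Lig3 included, had a median log2 ratio of -0.08.

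End joining genes went both ways. Ku, the ring that threads onto DNA ends, is made of the products of Xrcc5 and Xrcc6, and LIG4 acts bound to XRCC4. Xrcc6 had an FPKM of 3.38 in dKO-labelled cells and 5.92 in WT cells, a log2 ratio of -0.66 past the 1.5-fold rule. Its partner Xrcc5 had 2.33 in dKO-labelled cells and 3.23 in WT cells (-0.35), so both Ku genes lay below 0. Xrcc4 had 7.13 in dKO-labelled cells and 7.87 in WT cells (-0.13), unlike its partner Lig4, which was higher. The kinase gene of this pathway, Prkdc, was low in both, with 1.79 in dKO-labelled cells and 2.06 in WT cells (-0.13). An overlap of 344 exonic bases with Desi1 on the opposite strand applies to Xrcc6.

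Among kinases and mediators, Atr and Mdc1 were abundant and Atm and Chek2 low. ATR answers to single-stranded DNA and stalled forks and ATM to double-strand breaks; CHEK1 and CHEK2 are their main target kinases. Atr had an FPKM of 23.5 in dKO-labelled cells and 22.2 in WT cells (log2 ratio 0.08), while Atm had 1.47 in dKO-labelled cells and 2.55 in WT cells (-0.52). With a pseudocount of 0.5 the log2 ratio of Atm was -0.63, past 1.5-fold. Atr stood 16.0-fold above Atm in dKO-labelled cells and 8.68-fold above it in WT cells. Chek1 had 2.28 in dKO-labelled cells and 1.88 in WT cells (0.19). Chek2, at 0.498 in dKO-labelled cells and 0.521 in WT cells, was not expressed by the rule. A span of 726 exonic bases of Atr overlaps the antisense gene 1700065D16Rik, which was low in both libraries. Atr also shares 462 exonic bases with the antisense gene Gm16794 and 178 with the snRNA gene Gm24004 on the same strand. Neither of these was listed, so a share of the Atr reads is uncertain.

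Mdc1 had an FPKM of 40.6 in dKO-labelled cells and 34.4 in WT cells (log2 ratio 0.23); its product binds phosphorylated H2AX and is known for spreading that mark over the silenced sex chromosomes in meiosis. The ubiquitin ligase RNF8 acts downstream of MDC1 and has been linked in mice to histone ubiquitination in spermatids. Rnf8 had 2.47 in dKO-labelled cells and 4.24 in WT cells (-0.59), just past 1.5-fold. An exonic stretch of 1542 bases of Rnf8 is shared on the same strand with the annotated gene Gm28043, so its value is uncertain. The next ligase, Rnf168, had 5.43 in dKO-labelled cells and 6.47 in WT cells (-0.22). Trp53bp1, whose product reads the ubiquitin mark and favours end joining, had 13.8 in dKO-labelled cells and 14.3 in WT cells (-0.05). It shares 2130 exonic bases with Tubgcp4 on the opposite strand, a gene with 8.75 in dKO-labelled cells and 6.95 in WT cells. Topbp1, which encodes the activator of ATR, had 3.66 in dKO-labelled cells and 6.04 in WT cells (-0.59), also just past 1.5-fold. The 9 expressed genes of this group had a median of -0.13, and the steps from Mdc1 to Rnf8 thus lay on opposite sides of 0.

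In the MRN complex, whose nuclease and tethering subunits work as one unit, the ratios were not alike. Mre11a, for the nuclease, had an FPKM of 11.3 in dKO-labelled cells and 8.64 in WT cells (log2 ratio 0.35). Nbn, for the subunit that recruits ATM, had 8.07 in dKO-labelled cells and 6.19 in WT cells (0.34). Rad50, for the tethering ATPase, had 3.50 in dKO-labelled cells and 4.44 in WT cells (-0.27). Mre11a stood 3.22-fold above Rad50 in dKO-labelled cells and 1.95-fold above it in WT cells. It shares 154 exonic bases with Ankrd49 on the opposite strand, a gene with 11.4 in dKO-labelled cells and 11.7 in WT cells. None of the 3 MRN genes passed 1.5-fold.

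Homologous recombination genes were low, and 6 of the 8 expressed ones lay below 0 with none past 1.5-fold at a pseudocount of 1. Brca1, whose product promotes end resection, had an FPKM of 4.83 in dKO-labelled cells and 6.56 in WT cells (log2 ratio -0.38). Brca2, a breast cancer susceptibility gene of this pathway, had 3.08 in dKO-labelled cells and 3.87 in WT cells (-0.26), and Palb2, for the link between BRCA1 and BRCA2, had 1.09 in dKO-labelled cells and 1.73 in WT cells (-0.39). These linked genes shared a direction, and with a pseudocount of 0.1 Palb2 passed 1.5-fold at -0.62. Rad51c, which is needed in meiosis, went the other way with 5.21 in dKO-labelled cells and 3.60 in WT cells (0.43). Its partner gene Xrcc3 had 1.12 in dKO-labelled cells and 1.57 in WT cells (-0.28), and the related gene Xrcc2, with 0.862 in dKO-labelled cells and 0.809 in WT cells, was not expressed by the rule. Rad52, for a strand-annealing protein, had 2.15 in dKO-labelled cells and 1.59 in WT cells (0.28). The translocase gene Rad54l had 1.98 in dKO-labelled cells and 2.98 in WT cells (-0.42) and its relative Rad54b had 1.93 in dKO-labelled cells and 2.01 in WT cells (-0.04), so that their levels lay near each other in dKO-labelled cells. Rad54l shares 1184 exonic bases with Lrrc41 on the opposite strand, a gene with an FPKM of 46.4 in dKO-labelled cells and 43.0 in WT cells, so its low value is uncertain. Rad54b shares 2068 exonic bases with Fsbp on the same strand, a gene with 0.078 in dKO-labelled cells and 0.088 in WT cells. The median of the 8 was -0.27.

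Crosslink repair and RecQ helicase genes held the largest rise of the set. Wrn, which encodes the helicase and exonuclease deficient in Werner syndrome, rose past 1.5-fold to an FPKM of 10.4 in dKO-labelled cells, against 5.06 in WT cells (log2 ratio 0.91). With no pseudocount this was a ratio of 2.06. Blm, for the related Bloom syndrome helicase, had 5.91 in dKO-labelled cells and 4.61 in WT cells (0.30). Fancd2, for the Fanconi anaemia protein that is ubiquitinated at crosslinks, had 10.7 in dKO-labelled cells and 8.89 in WT cells (0.24), whereas Fanca, for a subunit of the ligase complex acting on it, had 3.97 in dKO-labelled cells and 5.98 in WT cells (-0.49), or -0.60 with each library rescaled to a sum of 1000000. Fanca shares 920 exonic bases with Zfp276 on the opposite strand, a gene with 0.878 in dKO-labelled cells and 1.70 in WT cells. Of the 4 genes of this group, 3 lay above 0, as did 4761 of all 10438 expressed genes. The median of the 4 was 0.27. Wrn had the largest gain in rank of the set, with 67.1% of expressed genes at or below its level in dKO-labelled cells and 49.2% in WT cells. Lig1 had the largest loss, at 51.0% in dKO-labelled cells and 67.2% in WT cells.

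**Figure D3:**
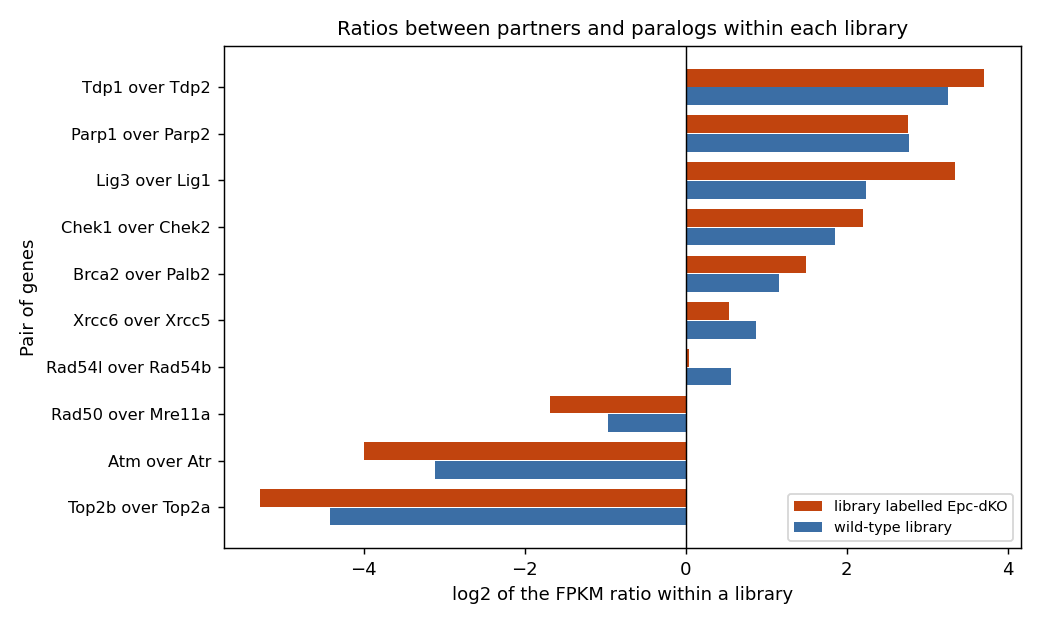
Log2 of the FPKM ratio between partner or paralog genes within a library, for the library labelled Epc-dKO (upper bar of each pair) and the wild-type library (lower bar). Each pair keeps the same order of levels in both libraries, and Lig3 over Lig1 differs most, at 3.35 in dKO-labelled cells and 2.24 in WT cells.

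Ratios between genes of one library do not depend on how that library was scaled, and all 10 pairs fixed for this purpose kept their order. The difference in the log2 ratio, the library labelled Epc-dKO minus the wild-type library, was 1.12 for Lig3 over Lig1. It was -0.88 for Atm over Atr, -0.87 for Top2b over Top2a and -0.73 for Rad50 over Mre11a. The other 6 lay between -0.53 and 0.45. In pairs chosen after their values were seen, Lig4 over Lig1 differed by 1.93, Lig4 over Xrcc4 by 1.10 and Wrn over Blm by 0.69. The order changed in both pairs with Lig4: the ratio of Lig4 to Xrcc4 was 1.22 in dKO-labelled cells and 0.570 in WT cells, and that of Lig4 to Lig1 was 1.65 in dKO-labelled cells and 0.434 in WT cells.

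The ratios of the set differed by level. Of the 20 genes whose mean FPKM lay between 1 and 5, 17 (85.0%) lay below 0 and the median was -0.28; among all 5110 expressed genes of this range 61.1% lay below 0 and the median was -0.13. Of the 18 genes whose mean FPKM reached 5, 8 (44.4%) lay below 0 and the median was 0.11; among all 5328 such genes these were 48.0% and 0.02. The direction of the whole set therefore came from its low genes, a leaning that low genes of the whole table shared. By GENCODE annotation of GRCm38, 18 of the 40 genes share exonic bases with another gene. For overlaps on the opposite strand a share of the reads is uncertain where the counting did not use strand. Overlaps on the same strand, as for Rad54b, Rnf8, Atr and Top2a, leave a share uncertain even where strand was used. The genes of the set are long, with a median longest annotated transcript of 4528 nt beside 3163 nt for the 9311 expressed genes with an entry.

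Other DNA repair genes, in 7 lists with 116 genes in the table, had a median near that of the set. Of their 91 expressed genes 62 lay below 0, which is 68.1% beside 65.8% of the set and 54.4% of all expressed genes, and the median log2 ratio was -0.15. By 2-fold 1 was higher and 0 were lower, where 2.75% and 1.88% of all expressed genes were. The gene that rose was Cdc25c, for a phosphatase that drives entry into division, with an FPKM of 4.02 in dKO-labelled cells and 1.30 in WT cells (1.12). By the 1.5-fold rule 1 was higher and 11 were lower, which is 1.10% and 12.1% of the 91 beside 8.02% and 10.8% of all expressed genes. Further break signalling and resection genes had a median of -0.08, other recombination and crosslink genes -0.21, and other end joining genes -0.17. The remaining medians were -0.03 for base excision genes, -0.21 for nucleotide excision repair, -0.29 for mismatch repair and 0.02 for other topoisomerase genes.

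In most of these lists the most abundant gene was not the most changed one. The damaged DNA-binding gene Ddb2 had an FPKM of 0.857 in dKO-labelled cells and 2.52 in WT cells (-0.92), past 1.5-fold. Poll, for an end joining polymerase, also passed it at 11.6 in dKO-labelled cells and 18.3 in WT cells (-0.62). Poll was also the most abundant gene of its list, while the most abundant genes of the others stayed within 1.5-fold. Usp1, for the deubiquitinase that acts on FANCD2, had 158.6 in dKO-labelled cells and 116.3 in WT cells (0.44), Rad23b had 52.8 in dKO-labelled cells and 49.3 in WT cells (0.10), and Herc2 had 33.1 in dKO-labelled cells and 26.8 in WT cells (0.29). Msh6, a mismatch repair gene, had 5.42 in dKO-labelled cells and 6.84 in WT cells (-0.29), and the sliding clamp gene Pcna had 14.8 in dKO-labelled cells and 15.2 in WT cells (-0.04). Top3b, for a type I topoisomerase that also acts on RNA, had 26.7 in dKO-labelled cells and 30.2 in WT cells (-0.17), which was still the widest difference of its list. The histone gene H2afx, whose product is phosphorylated at breaks and which was named after its values were seen, had 4.81 in dKO-labelled cells and 7.11 in WT cells (-0.48).

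**Figure D4:**
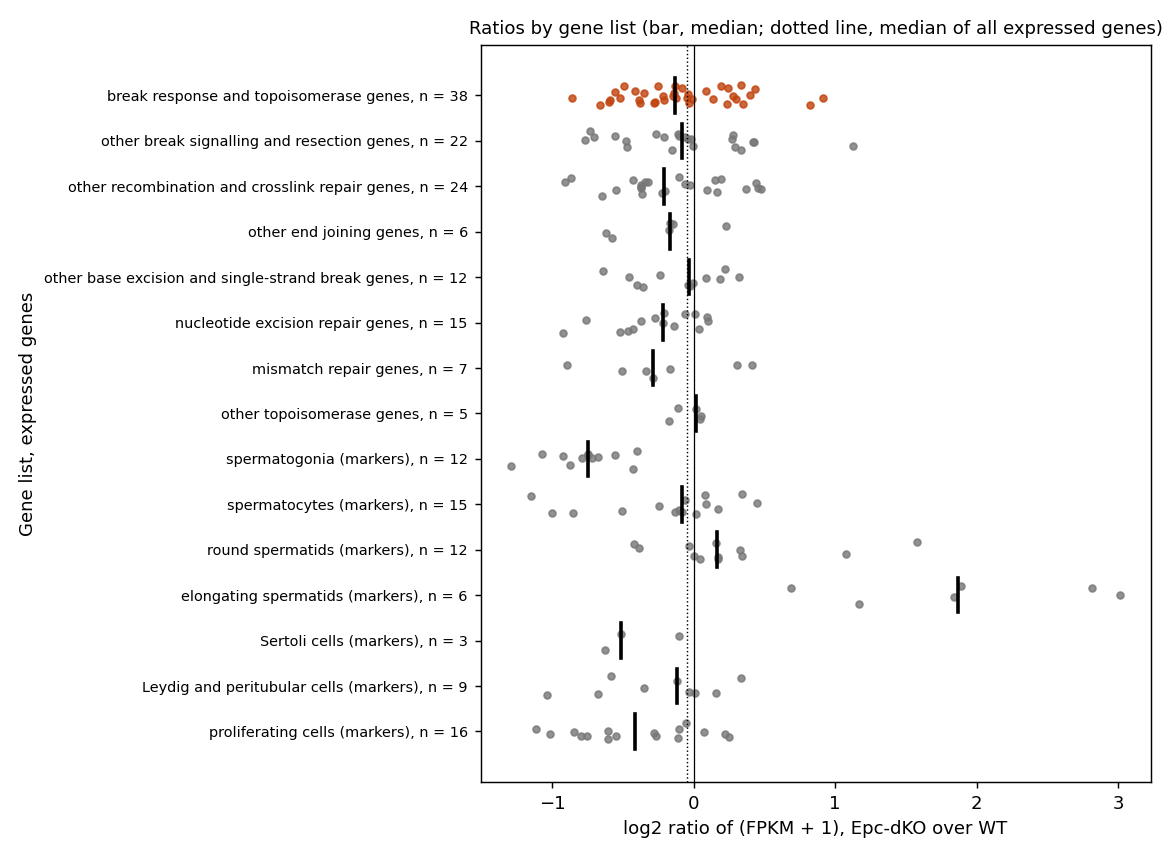
Log2 ratio of (FPKM + 1), the library labelled Epc-dKO over the wild-type library, for expressed genes of each list (points) with the list median (bar), and the median of all expressed genes as a dotted line. The break response and topoisomerase genes and the other repair lists centre between -0.29 and 0.02. Spermatogonial, Sertoli (3 genes) and proliferation markers centre lower, at -0.75, -0.51 and -0.41, and elongating spermatid markers at 1.87. The other marker lists centre between -0.12 and 0.17.

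Marker lists of testis cells differed in how far they stood apart between the libraries. The counts below stand beside 8.02% of all expressed genes higher and 10.8% lower by the 1.5-fold rule. Round spermatid markers were abundant in both, with 12 of 12 expressed and a summed FPKM of 668.9 in dKO-labelled cells and 586.3 in WT cells. Of these 12, 9 lay above 0, and 2 (16.7%) were higher and 0 lower by 1.5-fold. Spermatogonial markers, with 12 of 15 expressed, lay below 0 in all 12 and were lower by 1.5-fold in 9, and their summed FPKM was 21.0 in dKO-labelled cells and 44.8 in WT cells. Markers of proliferating cells, with 16 of 16 expressed and 13 below 0, summed to 252.4 in dKO-labelled cells and 286.1 in WT cells. Of these 16, 0 were higher and 7 (43.8%) lower by 1.5-fold. The most abundant of them, Plk1 and Mcm7, had log2 ratios of -0.27 and 0.25, and the lowest ratios were -1.11 for Mcm2 and -1.01 for Mcm5. Elongating spermatid markers, 6 of 6 higher by 1.5-fold, summed to 1450 in dKO-labelled cells and 413.6 in WT cells. Whether the RNA of these 6 genes came from elongating or from round spermatids cannot be told here. Spermatocyte markers (15 of 17 expressed, 3 lower by 1.5-fold) summed to 339.5 in dKO-labelled cells and 357.8 in WT cells, Sertoli markers (3 of 11) to 9.36 in dKO-labelled cells and 14.2 in WT cells, and Leydig and peritubular markers (9 of 10) to 30.3 in dKO-labelled cells and 41.6 in WT cells. None of the 8 blood, immune and endothelial markers was expressed; they summed to 2.11 in dKO-labelled cells and 2.28 in WT cells, and the haemoglobin genes Hba-a1 and Hbb-b1 were listed at 0 in both. In a bulk sample, fewer cells of a type and less RNA per cell cannot be told apart. The part of these cells in the differences of Lig1, Xrcc6, Topbp1, Rnf8, Wrn and Lig4 was not tested.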

How the data were processed

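Total RNA was turned into strand-marking Illumina libraries, per the labels' protocols. The authors deposited a table of FPKM per gene with a column for each of the 2 libraries. Cufflinks 2.2.1 and the mm9 build are named in the submitters' processing notes; aligner, annotation, strand setting and scaling are not. Since FPKM is relative to the whole library, abundant transcripts can move the values of all others. Of 23235 rows, 1 held library codes and was left out. Depth is unknown, so no counting interval was computed.

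Members and lists were chosen with earlier results of these data known. All members are named; in other repair lists the most abundant and the most changed expressed gene and any past 2-fold, of which 3 are not reported here; in marker lists few are. Hba-a1, Hbb-b1, Mcm2 and Mcm5 were named after their values were seen. Ratios used a pseudocount of 1 and expressed genes a mean FPKM of 1 or more. Percentiles rank genes among the 10438 expressed. Alternatives were pseudocounts of 0.1 and 0.5, 3 rescalings, and no minimum or a minimum mean FPKM of 5. Overlaps and transcript lengths came from GENCODE M21, which annotates GRCm38. Motifs, chosen with the ratios known, were searched in RefSeq windows of GRCm38.p6, another build than mm9. Python 3.11.15, NumPy 2.4.6, pandas 2.3.3 and Matplotlib 3.10.9 were used.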

Additional observations from a re-analysis of the deposited data

How the results depend on the processing

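Over 5 alternative pseudocounts and scalings of 40 genes, 173 of 200 ratios moved by less than 0.1 on the log2 scale. The 6 genes past 1.5-fold kept their direction and stayed past 1.5-fold in 28 of 30 comparisons. Much of this was fixed in advance. A pseudocount cannot change a direction, and one below 1 can only widen a ratio. The shifts made by the rescalings were too small to reverse a gene past 1.5-fold. The count of lower genes past 1.5-fold was 7 of 38 with a pseudocount of 0.1, beside 17.7% of all genes expressed under that setting. It was 8 of 40 with each library rescaled to a sum of 1000000, beside 21.6%. That rescaling lowers the weight of the pseudocount and changes the scale between the libraries. It also lets 15151 genes reach the minimum. The part of each in this count was not tested. The count of lower genes was 2 of 38 with a median ratio of 1, beside 9.39%, which leaves out the borderline Topbp1 and Rnf8. At a minimum mean FPKM of 5, where fewer genes are counted, it was 1 of 18, beside 7.39%. With a pseudocount of 0.1, 1 of 38 genes, Wrn, was higher past 2-fold, beside 4.15% of all expressed genes, and the median of recombination genes was -0.38. At a minimum mean FPKM of 5 the medians were 0.11 for the set, 0.02 for 4 kinase and mediator genes, -0.38 for the 1 recombination gene left, 0.35 for 2 end joining genes and 0.13 for 2 topoisomerase and adduct genes. The set's lower median thus rests on genes under that level. The rescalings put the median of all genes at -0.13 to 0.00, beside -0.05 as deposited. No paired analysis was possible because there is only 1 library of each genotype. Without a known depth, low values such as those of Top2b, Atm and Chek2 carry an unknown counting error.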
